A study of Mus musculus with 18 samples.

Results

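The ephrin, Slit-Robo and netrin guidance genes are 40 genes of 24062 lines in a mouse gene count table. They were chosen by symbol, with earlier results of these data known. They are 5 ephrin-A and 3 ephrin-B ligands, 9 EphA and 5 EphB receptors, 3 Slit ligands and 3 Robo receptors. The others are 4 netrins, 2 membrane-anchored netrin-Gs, the netrin receptors Dcc and Neo1, and 4 Unc5 receptors. All 40 symbols were found in the GENCODE M21 annotation of the mouse genome. Poly(A)-selected RNA was sequenced from C57BL/6 mice that were heterozygous for Chd2 (Chd2+/-, HET) or wild type (WT). Chd2 encodes a chromatin remodelling enzyme, and the series addresses its role in neural circuit development and in long-term memory. The tissues were the hippocampus at postnatal day 45 (P45) and, at embryonic day E13.5, the medial ganglionic eminence (MGE), which produces many forebrain interneurons, and the cortex. Each of the 6 groups (hippocampus HET and WT, MGE HET and WT, cortex HET and WT) held 3 libraries, with 26841671 to 38802765 counts each. The labels do not say whether replicates were separate animals or pools, and give neither the sex of the animals nor the kind of Chd2 allele. P-values therefore measure only the spread between these libraries, which may be technical. The MGE and the cortex share an age, while the hippocampus differs from both in age and region, which cannot be told apart.

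Ephrins are membrane-bound ligands that bind Eph receptor tyrosine kinases on neighbouring cells and mostly repel axons or sort cells, and they can signal in reverse into the cell that carries them. Slits are secreted proteins that repel axons through Robo receptors. Netrins attract axons through Dcc and repel them through Unc5 receptors, and netrin-Gs are lipid-anchored relatives that work at synapses through other partners. In the adult hippocampus several of these families shape dendritic spines and synapses, while in the embryonic forebrain they direct thalamic, commissural and interneuron paths.

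Levels are given as CPM, the counts of a gene relative to the size of its library, scaled by the trimmed mean of M-values (TMM) over all 18 libraries, and each library of a group is listed in the order of its replicate number. Chd2 itself had 64.4, 67.5 and 66.0 CPM in HET hippocampus, against 74.0, 70.7 and 78.9 CPM in WT hippocampus. In MGE it averaged 139 ± 4.38 CPM in HET and 163 ± 11.0 CPM in WT, and in cortex 124 ± 0.71 CPM in HET and 147 ± 5.16 CPM in WT (SD, n = 3 each). All HET libraries lay below all WT libraries of their tissue, although the decreases (log2 fold changes of -0.17, -0.24 and -0.22) did not pass edgeR's adjusted test (adjusted p = 0.191, 0.980 and 0.578). The 5 MGE markers summed to 1827 to 2246 CPM in the MGE libraries and to at most 417 CPM elsewhere, and the 5 markers of adult hippocampal neurons summed to at least 5940 CPM in hippocampus and at most 118 CPM elsewhere. All 3 MGE HET libraries expressed Y-linked genes and all 3 MGE WT libraries expressed Xist, with at most 0.066 CPM of each Y-linked marker, so genotype and sex markers cannot be told apart in that tissue. In cortex, Xist and the Y-linked markers together summed to 221, 1292 and 236 CPM in HET and to 241, 1251 and 1290 CPM in WT. The libraries of each cortex group thus differed in sex markers. Cortex HET 1 and HET 2 stood apart from the other cortex libraries in the excitatory neuron gene Neurod6, at 516 and 470.5 CPM. Cortex HET 3 had 1138 CPM of it and WT cortex 1052, 1065 and 1212 CPM. Choroid plexus markers split the cortex libraries otherwise. The 6 of them summed to 13.4, 255 and 442 CPM in HET and to 1559, 5.68 and 1198 CPM in WT cortex.

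Most of the guidance genes had their highest level in 1 tissue, and members of 1 family often differed in which tissue that was. Of the 40 genes, 13 were highest in hippocampus with all 6 of its libraries above all others, 8 were highest in MGE and 5 in cortex by the same measure. This measure was not taken over all genes, so the numbers are not read as particular to guidance genes. Tissue differences were common: in WT, 83.1% of all genes had an unadjusted p under 0.05 for hippocampus against MGE in edgeR's test. For MGE against cortex the share was 56.2%. The 13 hippocampal genes were Efna3, Epha6, Epha7, Epha10, Ephb6, Slit1, Slit3, Ntn5, Ntng1, Ntng2, Unc5a, Unc5b and Unc5c. The 8 MGE genes were Efna2, Efna5, Ephb1, Ephb2, Ephb3, Robo1, Ntn1 and Ntn4, and the 5 cortical genes were Efna1, Efna4, Efnb1, Efnb2 and Neo1. For the remaining 14 genes the libraries of the highest tissue overlapped those of another. The order of the 3 tissues was the same in HET and in WT for 33 of the 40 genes.

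**Figure D1:**
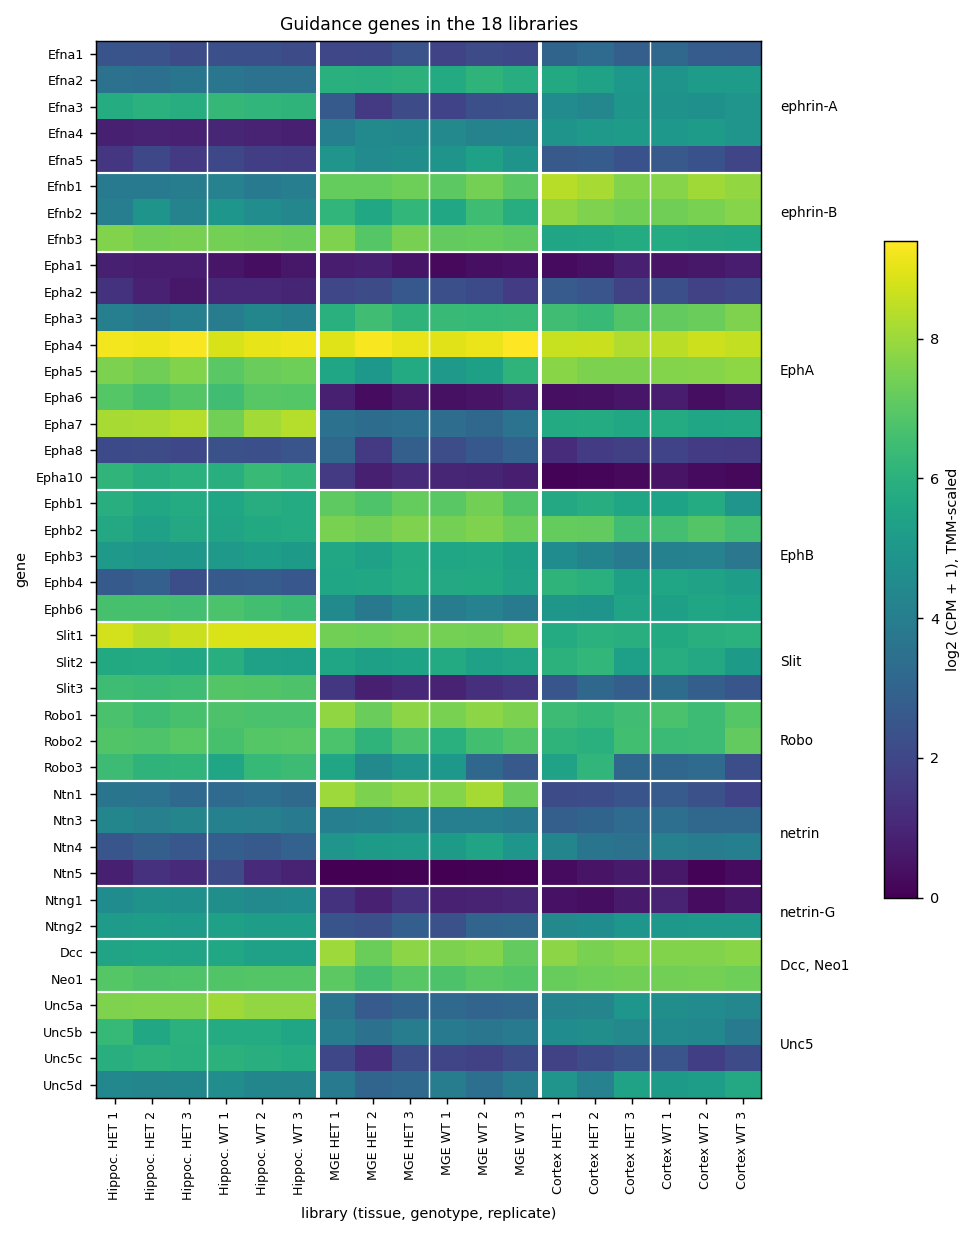
Level of each of the 40 guidance genes (rows, by family) in each of the 18 libraries (columns), as log2 of TMM-scaled CPM plus 1. Epha4 is bright in all 18 columns, while Ntn1 is bright in the 6 MGE columns and Slit3, Unc5a and Epha6 in the 6 hippocampal columns.

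To compare genes with each other, CPM were divided by the length of the gene's exons in kb. On this per-length scale, over the 6 libraries of each tissue, Slit1 was highest in hippocampus at 72.6 ± 8.57 CPM per kb (SD, n = 6), followed by Epha4 at 69.8 ± 7.72, Efnb3 at 54.4 ± 4.60, Unc5a at 52.7 ± 7.22 and Epha7 at 28.3 ± 6.05. The first 4 of these overlapped with a neighbour in the order, and Epha7 did not reach them. In MGE the order was Epha4 at 70.5 ± 9.06 CPM per kb, Efnb3 at 47.3 ± 8.8, Efnb1 at 42.3 ± 5.08, Ntn1 at 34.4 ± 7.78 and Slit1 at 29.3 ± 2.25, and each overlapped with a neighbour in the order. In cortex Efnb1 led at 74.0 ± 15.1 CPM per kb, followed by Epha4 at 46.1 ± 4.45, Efnb2 at 27.7 ± 3.69, Efna4 at 19.8 ± 1.70 and Neo1 at 18.7 ± 1.02, of which Efna4 and Neo1 overlapped. Epha4, a receptor for ligands of both ephrin classes, was among the first 2 in every tissue. With the length of the longest transcript in place of all exons, Epha5 and Epha3 took the fourth and the fifth rank in cortex, and in hippocampus Epha4 moved ahead of Slit1 and Unc5a ahead of Efnb3.

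Efnb1 and Efnb2 were lower in hippocampus than in either embryonic tissue. Efnb1, a ligand on radial progenitors, had 14.04, 13.3 and 14.5 CPM in HET and 16.9, 13.96 and 15.1 CPM in WT hippocampus. It had 145, 146 and 159 CPM in HET and 129, 172 and 126 CPM in WT MGE, and 335, 289 and 198 CPM in HET and 207, 265 and 237 CPM in WT cortex. In WT libraries this was a log2 difference of -3.17 ± 0.15 (SE) for hippocampus against MGE and -3.91 ± 0.15 for hippocampus against cortex. Efnb2, also a ligand of arterial endothelium, averaged 24.2 ± 5.40 CPM in WT hippocampus and 183 ± 22.6 CPM in WT cortex (log2 difference -2.89 ± 0.24), and its log2 difference for hippocampus against MGE was -1.39. Efnb3 behaved otherwise: its 153 to 197 CPM in hippocampus overlapped the 119 to 193 CPM in MGE, and both stood above the 46.3 to 54.8 CPM in cortex.

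The ephrin-As divided among the tissues. Efna5, which guides thalamocortical and retinal axons, had 29.0, 22.1 and 24.6 CPM in HET and 28.3, 40.4 and 27.9 CPM in WT MGE, against 5.25, 5.66 and 4.18 CPM in HET and 5.24, 4.18 and 2.87 CPM in WT cortex. Efna3 showed the reverse, with 5.25, 2.04 and 3.51 CPM in HET and 2.75, 3.90 and 3.98 CPM in WT MGE, against 22.3, 19.4 and 30.2 CPM in HET and 26.6, 25.5 and 28.7 CPM in WT cortex. For MGE against cortex in WT libraries the log2 difference was 2.96 ± 0.23 for Efna5 and -2.94 ± 0.13 for Efna3. Efna3 reached its highest level in hippocampus, at 55.4 to 76.0 CPM. Efna4 was lowest there, at 0.79 to 1.00 CPM in hippocampus against 15.7 to 20.9 CPM in MGE and 28.4 to 34.7 CPM in cortex, and its log2 difference for hippocampus against cortex was -5.11 ± 0.15 in WT. Efna1, Efna3 and Efna4 lie side by side on chromosome 3, with 32756 bp between Efna1 and Efna3 and 10424 bp between Efna3 and Efna4, of which Efna1 and Efna4 were highest in cortex and Efna3 in hippocampus. Exons of Efna3 and Efna4 overlap antisense transcripts over 14.1 and 10.5% of their length, and the strand setting of the counting is not given in the sources used here, so their levels could include antisense reads.

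Among the receptors, Epha6 and Epha10 were almost confined to hippocampus in these libraries. Epha6 had 121, 100.2 and 116 CPM in HET and 91.3, 124 and 119 CPM in WT hippocampus, against 0.25 to 0.79 CPM in MGE and 0.29 to 0.66 CPM in cortex. Epha10, whose kinase domain is held to be inactive, had 69.5, 57.1 and 63.6 CPM in HET and 60.5, 82.6 and 71.7 CPM in WT hippocampus, against 0.74 to 2.01 CPM in MGE and 0.06 to 0.42 CPM in cortex. Counts were low, with fewer than 30 per library for Epha6 in both embryonic tissues and for Epha10 in cortex. Epha10 was below the filter on low counts in the cortex libraries alone, so against cortex it was tested only through other tissues. Epha7, a receptor tied to dendrite and cortical map formation, took 3 separate levels, with 166 to 330.2 CPM in hippocampus, 7.93 to 11.0 CPM in MGE and 45.3 to 54.6 CPM in cortex. Epha3 ran the other way, at 12.7 to 18.8 CPM in hippocampus, 62.3 to 89.7 CPM in MGE and 80.5 to 189 CPM in cortex.

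Epha5, a receptor for ephrin-As, was lowest in MGE: it had 127 to 194 CPM in hippocampus, 31.2 to 67.8 CPM in MGE and 186 to 223 CPM in cortex. Epha4 had 577 to 632 CPM in HET hippocampus and 452 to 577 CPM in WT hippocampus, 485 to 675 CPM in MGE and 313 to 407 CPM in cortex. The EphB receptors Ephb1, Ephb2 and Ephb3, which bind ephrin-Bs and cluster glutamate receptors at synapses, were each highest in MGE, where Ephb2 had 154 to 191 CPM. Ephb4, the partner of ephrin-B2 in veins, was at 3.79 to 6.30 CPM in hippocampus against 36.7 to 68.6 CPM in the embryonic tissues. Ephb6, a receptor without kinase activity, was instead highest in hippocampus at 83.0 to 106 CPM. Epha1, Epha2 and Epha8 stayed under 8 CPM in all 18 libraries, and Epha1 had fewer than 30 counts in each.

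Slit1 and Slit3 were hippocampal, and Slit2 was even. Slit1 had 343 to 474 CPM in hippocampus, 160.4 to 199.5 CPM in MGE and 51.2 to 63.5 CPM in cortex, so that the 3 tissues did not overlap. Slit3 had 84.2 to 118 CPM in hippocampus, 0.76 to 1.90 CPM in MGE and 4.70 to 9.03 CPM in cortex. Slit2 overlapped across all tissues, at 33.9 to 74.4 CPM, and no tissue pair passed the threshold for it in either genotype. Of their receptors, Robo1 was highest in MGE at 149.9 to 230.4 CPM, against 89.0 to 108 CPM in hippocampus and 75.9 to 119 CPM in cortex, and Robo2 lay between 60.9 and 139 CPM throughout. Robo3, which in hindbrain commissural axons counters the response to Slit, varied widely between replicates. It had 45.5, 20.8 and 29.3 CPM in HET and 31.5, 7.80 and 5.14 CPM in WT MGE.

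The netrin system turned over between the tissues. Ntn1, the classical attractant, had 262, 185 and 214 CPM in HET and 202, 282 and 151 CPM in WT MGE. Hippocampus had 8.38 to 11.5 CPM of Ntn1 and cortex 2.69 to 5.51 CPM, and the log2 difference for MGE against cortex in WT was 5.68 ± 0.30. Ntn4, a basement membrane netrin, was also highest in MGE at 29.1 to 44.0 CPM. Dcc, the attractive receptor, was at 40.2 to 47.0 CPM in hippocampus against 139 to 262 CPM in MGE and 182 to 215 CPM in cortex. Unc5a and Unc5c, which mediate repulsion, were highest in hippocampus: Unc5a had 193 to 267 CPM in hippocampus, 5.49 to 11.3 CPM in MGE and 17.5 to 29.9 CPM in cortex, while Unc5c had 54.9 to 66.2 CPM in hippocampus and at most 4.54 CPM in either embryonic tissue. Unc5d, a receptor of upper-layer neurons and their precursors, differed from its relatives, with 18.2 to 23.3 CPM in hippocampus, 7.28 to 14.5 CPM in MGE and 16.8 to 49.9 CPM in cortex. Ntng1 had 21.0 to 27.8 CPM in hippocampus, 0.81 to 1.61 CPM in MGE and 0.26 to 0.84 CPM in cortex, where each library had fewer than 30 counts. Ntn5 had 99 counts over the 3 HET and 169 over the 3 WT hippocampal libraries, against 1 in HET and 3 in WT MGE, which in WT is a 62.6-fold ratio per depth (95% interval 21.1 to 307, counting error only). Exons of Ntn5 overlap the opposite-strand gene Sec1 over 23.4% of their length.

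Tissue tests compared libraries of 1 genotype at a time in edgeR's quasi-likelihood model over all genes, and a gene was called when its adjusted p was under 0.05 and its level differed at least 2-fold. For hippocampus against MGE, 14 members were higher and 14 lower in HET libraries, and 15 were higher and 13 lower in WT libraries, of 40 tested. Over all genes, 30.7% were higher and 24.6% lower in HET libraries, and 30.9% and 23.6% in WT libraries. For hippocampus against cortex the members split 15 higher and 11 lower in HET and 16 higher and 10 lower in WT, where 28.6% and 25.2% of all genes were called in HET and 28.1% and 24.7% in WT. For MGE against cortex, 12 members were higher and 10 lower in HET and 9 higher and 11 lower in WT, beside 5.53% and 9.88% of all genes in HET and 5.52% and 10.5% in WT. The share of members called for MGE against cortex, 22.5% higher and 27.5% lower in WT, was above the share of all genes in both directions. It includes Ntn5, with 3 counts in WT MGE, and Epha10, with 25 counts over the WT cortex libraries. In HET the calls include Epha10, with 13 counts over the cortex libraries, and Ntng1, with 42. Epha10 and Ntn5 entered this comparison only through tissues where they were higher. The numbers called in the comparisons with hippocampus include members with few counts in an embryonic tissue: Epha6, Epha10, Ntng1 and Ntn5. Of these, Ntn5 was below the filter on low counts in MGE alone and Epha10 in cortex alone. Efna4 had fewer than 30 counts in every hippocampal library.

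The largest differences whose libraries did not overlap, in WT, were as follows. For hippocampus against MGE the log2 differences were 7.87 ± 0.24 for Epha6, 6.46 ± 0.26 for Slit3, 6.30 ± 0.20 for Epha10, 5.84 ± 0.98 for Ntn5 (from 3 counts in WT MGE, with the ratio given above), 5.01 ± 0.10 for Unc5a and 4.80 ± 0.26 for Epha7. In the other direction they were -4.52 ± 0.28 for Ntn1, -4.34 ± 0.15 for Efna4, -3.62 ± 0.24 for Efna5, -3.17 ± 0.15 for Efnb1, -3.14 ± 0.12 for Ephb4 and -2.52 ± 0.16 for Ntn4. For hippocampus against cortex they were 8.07 ± 0.24 for Epha10, 7.90 ± 0.24 for Epha6, 5.47 ± 0.29 for Ntng1, 4.11 ± 0.20 for Unc5c, 4.11 ± 0.22 for Slit3 and 3.52 ± 0.10 for Unc5a. Lower in hippocampus than in cortex were Efna4, Efnb1 and Efnb2, with the values given above, Epha3 (-3.23 ± 0.12), Ephb4 (-2.92 ± 0.12) and Dcc (-2.20 ± 0.13). For MGE against cortex, Ntn1 and Efna5 were followed by Epha10 (1.76 ± 0.33), Ephb1 (1.68 ± 0.22), Slit1 (1.64 ± 0.09) and Ephb3 (1.52 ± 0.12). Lower in MGE than in cortex, beside Efna3, were Epha7 (-2.39 ± 0.24), Slit3 (-2.35 ± 0.27), Ntng2 (-2.34 ± 0.19), Epha5 (-2.18 ± 0.23) and Unc5d (-1.63 ± 0.18). The highest adjusted p among these differences, in edgeR's test, was 0.00106, for Epha10 in MGE against cortex.

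**Figure D2:**
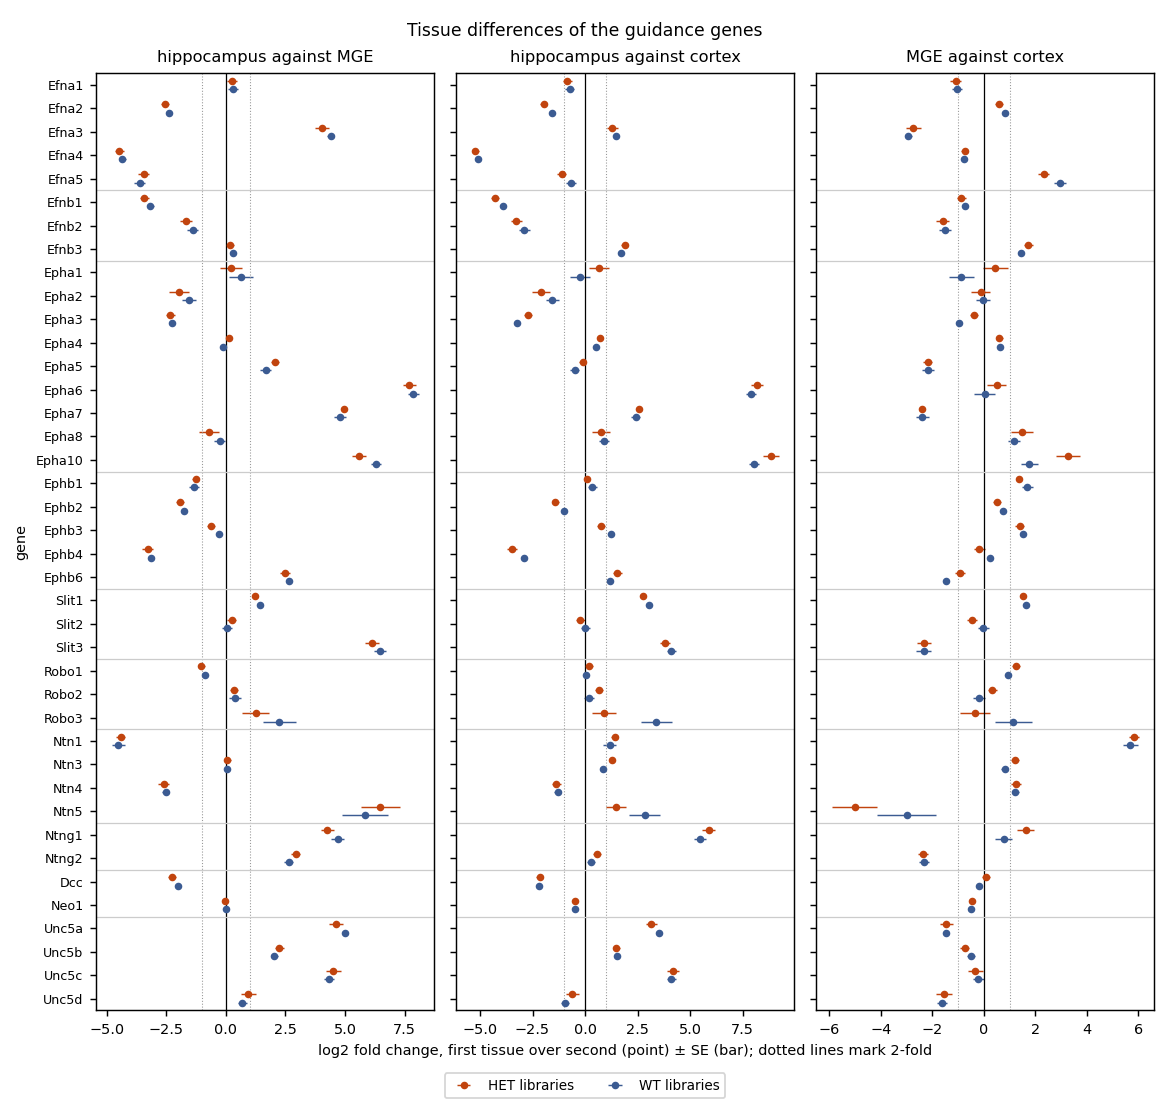
Log2 fold change between tissues for each guidance gene (points) with its SE (bars), from HET libraries (red) and WT libraries (blue). Red and blue points lie close to each other for most genes, and Robo3 is among those where they lie far apart, at 0.91 in HET and 3.39 in WT for hippocampus against cortex.

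Most tissue calls in WT libraries were also made in HET libraries, and the difference was tested only in the genotype by tissue fit given further on. Of the 28 members called in WT for hippocampus against MGE, 14 of the 15 higher and 13 of the 13 lower were called the same way in HET. For all genes these shares were 91.4% and 91.2%. For hippocampus against cortex 14 of 16 higher and 10 of 10 lower calls were shared, beside 90.3% and 89.2% for all genes. For MGE against cortex 9 of 9 and 10 of 11 were shared, beside 73.1% and 74.5% for all genes. Called in HET libraries only were Ntn3, Ntng1 and Robo1 as higher in MGE than in cortex, Robo1 as lower in hippocampus than in MGE, and Ntn3 as higher and Efna5 as lower in hippocampus than in cortex. Called in WT libraries only, beside Robo3, were Ephb3 (hippocampus against cortex) and Ephb6 (MGE against cortex). No member was called in opposite directions. Robo3 was called higher in hippocampus only in WT libraries, against both MGE (log2 difference 1.25 ± 0.58 in HET and 2.25 ± 0.69 in WT) and cortex (0.91 ± 0.57 in HET and 3.39 ± 0.74 in WT). The genotype by tissue test of Robo3, over all 3 tissues, gave an adjusted p of 0.535 in edgeR.

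The genotype comparison in hippocampus called 2 members, both lower in HET. Slit3 had 88.7, 84.2 and 88.3 CPM in HET, against 118, 115 and 107 CPM in WT hippocampus, and no HET library reached a WT library. Its log2 fold change was -0.38 ± 0.06 (SE), a ratio of 0.770 (edgeR's quasi-likelihood test with Benjamini-Hochberg adjustment over 15283 genes, adjusted p = 0.0128). Unc5a, a netrin receptor that mediates repulsion, had 193, 195 and 196 CPM in HET, against 267, 236 and 232 CPM in WT. Its log2 fold change was -0.33 ± 0.07, a ratio of 0.797 (adjusted p = 0.0375 in edgeR's test). Of the 15283 genes tested in hippocampus, 1.07% passed, so 2 of 40 members stands beside 164 genes in all, of which 40 were higher and 124 lower in HET.

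To show the DNA at the starts of the genes on which the genotype results turn, the 250 bases before the RefSeq start (GRCm38.p6) are given 5′ to 3′ on the gene's strand, with CG dinucleotides in capitals. The windows are chr11:35121206-35121455 (plus strand) for Slit3 and chr13:54949161-54949410 (plus strand) for Unc5a, the genes called in hippocampus. They are chr16:63864176-63864425 (minus strand) for Epha3 and chr9:37433176-37433425 (minus strand) for Robo3, the members with the lowest p in cortex.
Slit3: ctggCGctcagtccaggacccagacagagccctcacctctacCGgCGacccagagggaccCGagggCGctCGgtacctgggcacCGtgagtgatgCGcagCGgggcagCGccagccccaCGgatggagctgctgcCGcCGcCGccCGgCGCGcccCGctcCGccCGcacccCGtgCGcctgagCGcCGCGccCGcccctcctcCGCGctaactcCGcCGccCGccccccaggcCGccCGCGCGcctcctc
Unc5a: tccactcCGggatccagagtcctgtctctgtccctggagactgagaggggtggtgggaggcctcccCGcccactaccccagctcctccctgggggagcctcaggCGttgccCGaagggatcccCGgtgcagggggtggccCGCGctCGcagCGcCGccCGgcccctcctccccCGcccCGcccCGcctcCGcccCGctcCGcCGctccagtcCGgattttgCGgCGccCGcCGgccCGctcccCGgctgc
Epha3: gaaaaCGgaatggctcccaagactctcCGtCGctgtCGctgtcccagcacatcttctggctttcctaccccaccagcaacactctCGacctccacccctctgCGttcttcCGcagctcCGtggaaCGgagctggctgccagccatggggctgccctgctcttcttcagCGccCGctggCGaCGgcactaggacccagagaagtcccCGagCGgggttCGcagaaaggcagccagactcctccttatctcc
Robo3: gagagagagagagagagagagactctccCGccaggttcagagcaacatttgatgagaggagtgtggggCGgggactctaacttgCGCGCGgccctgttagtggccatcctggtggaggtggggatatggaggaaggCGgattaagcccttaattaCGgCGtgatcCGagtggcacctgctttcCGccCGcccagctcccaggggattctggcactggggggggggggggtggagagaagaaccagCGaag
Slit3 has 35 CG dinucleotides in this window and Unc5a 25, against 16 in Epha3 and 12 in Robo3. The number of CG observed over that expected from the base composition was 0.947 for Slit3, 0.703 for Unc5a, 0.683 for Epha3 and 0.561 for Robo3. Windows were found for 35 of the 40 members, and Dcc, Efnb3, Ntn1, Slit1 and Unc5d were not matched. Over the 40 windows of these 35 genes the median ratio was 0.692, and 60.0% exceeded 0.6, against a median of 0.373 and 34.0% over all 32851 windows. The GC box GGGCGG, searched on both strands, was in 70.0% of the member windows and 32.7% of all windows. The TATA motif TATAAA, on both strands, was in 5.0% of member windows (Efnb2 and Slit2) and 12.4% of all windows, and the palindromic E-box CACGTG was in 5.0% and 6.02%. None of the 4 windows printed holds TATAAA or CACGTG.

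Efna3, Epha5 and Slit1 came next by p in hippocampus and did not pass. Efna3 had 55.4, 63.9 and 56.6 CPM in HET, against 76.0, 71.0 and 69.1 CPM in WT (log2 fold change -0.29 ± 0.07, adjusted p = 0.0751 in edgeR's test). Epha5 had 184, 163 and 194 CPM in HET, against 127, 153 and 157 CPM in WT (0.31 ± 0.08, adjusted p = 0.111 in edgeR's test). Slit1 had 434, 343 and 400.2 CPM in HET, against 468, 474 and 462 CPM in WT (-0.25 ± 0.08, adjusted p = 0.155 in edgeR's test). In each of these 3 genes the HET and WT libraries did not overlap. Efna3 passed in edgeR's test with no filter on low counts (adjusted p = 0.0298) and without hippocampus HET 2 (-0.36, adjusted p = 0.0375), while the Slit1 value was -0.16 without HET 2. In all, 8 of 40 members (20%) did not overlap between the genotypes, 2 higher (Epha1 and Epha5) and 6 lower in HET (Slit1, Slit3, Unc5a, Efna3, Epha8 and Robo1), a share close to the 20.8% of all genes in hippocampus. The median log2 fold change was -0.05 over the members and 0.005 over all genes. The third Slit, Slit2, had 51.7, 52.9 and 46.9 CPM in HET, against 58.6, 40.5 and 38.9 CPM in WT, and the receptors Robo1 and Robo2 had log2 fold changes of -0.09 ± 0.07 and 0.03 ± 0.07.

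The call on Slit3 was lost without hippocampus HET 3 (log2 fold change -0.39, adjusted p = 0.0904) and without WT 2 (-0.36, adjusted p = 0.0865), and that on Unc5a without HET 1, HET 2, HET 3 or WT 2 (adjusted p = 0.0854, 0.0677, 0.216 and 0.123), all in edgeR's test. DESeq2 called 4 members, adding Efna3 (adjusted p = 0.0213) and Epha5 (adjusted p = 0.0236), among 441 genes or 2.89% of all, while one edgeR fit of all 18 libraries called neither Slit3 nor Unc5a (adjusted p = 1 for both, log2 fold changes of -0.38 and -0.33). Endothelial markers moved with genotype in the same libraries: all 5 (Cldn5, Pecam1, Kdr, Cdh5 and Flt1) were lower in every HET library than in any WT library, and their sum was 70.8 to 81.9 CPM in HET hippocampus and 110.4 to 116 CPM in WT hippocampus. Fewer cells of a type and less RNA per cell cannot be told apart in such bulk samples, and the part of the endothelium in the Slit3 and Unc5a differences was not tested. Hippocampus WT 1 stood apart from WT 2 and WT 3 in Epha7 (166 against 272 and 327 CPM), Robo3 (44.7 against 78.1 and 86.4 CPM) and the CA1 neuron gene Wfs1 (182 against 476 and 485 CPM). Without it Slit3 and Unc5a still passed, and Slit2 passed as higher in HET (0.36 ± 0.08, adjusted p = 0.0353 in edgeR's test). The share of all genes that passed in that fit is not given here, so these calls are not read as particular to the 3 genes.

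**Figure D3:**
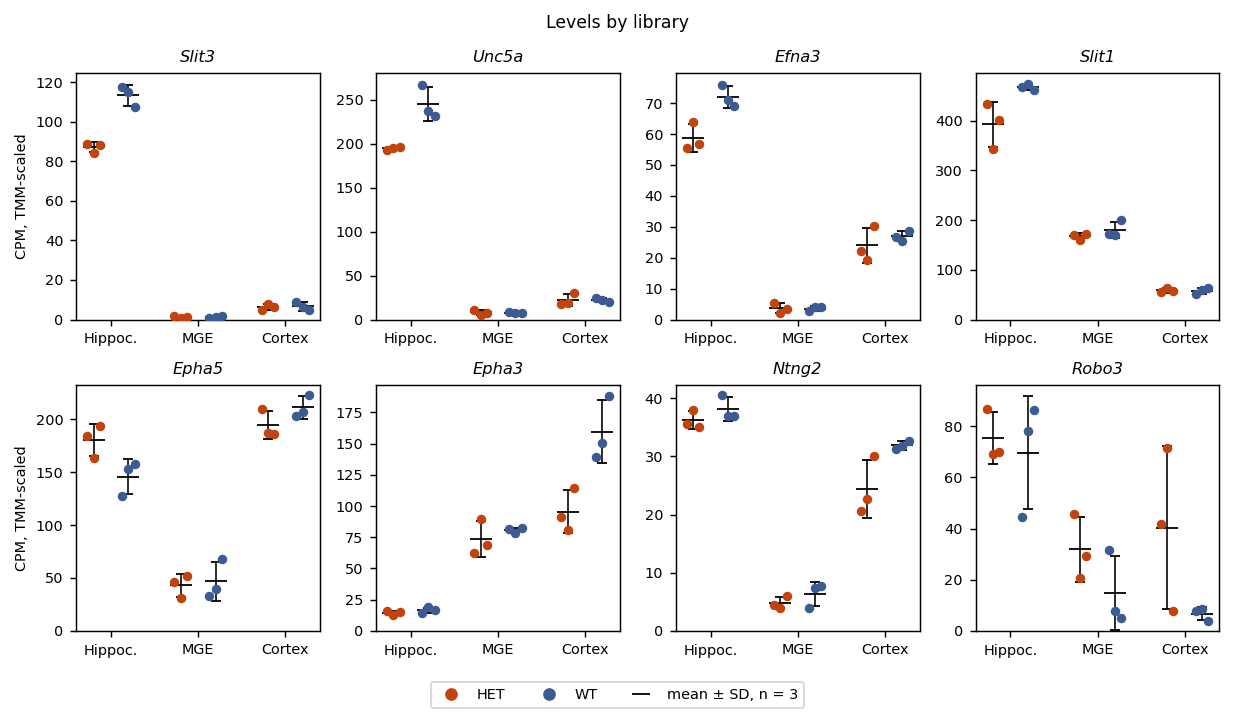
TMM-scaled CPM of 8 guidance genes in each library (points; HET red, left of WT blue) by tissue, with the mean and SD of the 3 libraries of each group. In hippocampus the HET points of Slit3 (84.2 to 88.7 CPM) and Unc5a (193 to 196 CPM) lie below all WT points, and in cortex 2 of the 3 HET points of Robo3 lie far above the third.

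In MGE no member differed between the genotypes past the threshold. Of 39 members tested (Ntn5 was below the filter) 0 passed in edgeR's test, with 1 member (Epha1) at an unadjusted p under 0.05, and 0 passed in DESeq2 or limma-voom. Over all genes 0.0479% passed, and 4.51% had an unadjusted p under 0.05 in edgeR's test. Epha1 had 0.65, 0.78 and 0.43 CPM in HET, against 0.18, 0.30 and 0.39 CPM in WT, from at most 28 counts in a library. Efna5 had 29.0, 22.1 and 24.6 CPM in HET, against 28.3, 40.4 and 27.9 CPM in WT (log2 fold change -0.35 ± 0.16), and Ntng1 had 1.61, 0.81 and 1.56 CPM in HET, against 0.81, 0.89 and 1.03 CPM in WT (0.55 ± 0.35). The adjusted p of all 3 was 0.980 in edgeR's test. Without MGE WT 2, the highest of the libraries for Efna5, its log2 fold change was -0.16 ± 0.14. Epha1 was the only member whose MGE libraries did not overlap, 2.56% of those tested, against 9.7% of all genes. Ntn1, the most MGE-specific ligand by level, averaged 221 ± 39.1 CPM in HET and 212 ± 66.2 CPM in WT (log2 fold change 0.07).

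In cortex 0 of 39 members passed in edgeR's test (Epha10 was below the filter), and 0.0% of the 14757 genes tested did. At an unadjusted p under 0.05 stood 4 members, Epha3, Robo3, Ntng2 and Ephb4, beside 7.89% of all genes. DESeq2 called 1 member among 11 genes, or 0.0745% of all. Epha3, a receptor for ephrin-As, had 91.4, 80.5 and 115 CPM in HET, against 139.7, 151 and 189 CPM in WT, so that no HET library reached a WT library. Its log2 fold change was -0.73 ± 0.16, a ratio of 0.603, with an adjusted p of 0.578 in edgeR's test and 0.0409 in DESeq2. Robo3 had 41.7, 71.6 and 7.85 CPM in HET, against 7.82, 8.68 and 3.80 CPM in WT (2.59 ± 0.71, adjusted p = 0.578 in edgeR's test), and HET 3 lay within the WT range. Ntng2, which binds the synaptic adhesion protein Lrrc4, had 20.6, 22.7 and 29.99 CPM in HET, against 31.2, 31.8 and 32.7 CPM in WT (-0.37 ± 0.15, adjusted p = 0.578 in edgeR's test). Epha3 and Ntng2 were the 2 members without overlap, 5.13% of those tested, against 11.1% of all genes.

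Cortex HET 1 and HET 2, which held the high Robo3 values, also differed from the other cortex libraries in regional and cell type genes. Wnt8b, a gene of the cortical hem and medial pallium, had 40.4, 39.0 and 18.5 CPM in HET, against 21.3, 14.3 and 9.26 CPM in WT cortex. Mki67, a marker of dividing cells, had 733, 735 and 459 CPM in HET, against 535, 556 and 549 CPM in WT. The 5 markers of dorsal cortex, Neurod6 among them, summed to 1522, 1406 and 2142 CPM in HET libraries. In WT libraries they summed to 2012, 2181 and 2370 CPM. Most of the gap of HET 1 and HET 2 to HET 3 in this sum lay in Neurod6. In HET over WT cortex the log2 fold change was -0.64 for Neurod6, -0.29 for Neurod2, -0.21 for Tbr1 and -0.09 for Eomes. Emx1 went the other way, at 0.31. The 4 young neuron markers summed to 1522, 1472 and 2423 CPM in HET and to 2171, 2160 and 2481 CPM in WT cortex. For the 4 red blood cell markers the sums were 928, 1148 and 375 CPM in HET and 293, 378 and 447 CPM in WT cortex. The 5 markers of cortical hem and Cajal-Retzius cells summed to 318, 422 and 399.6 CPM in HET libraries. In WT libraries they summed to 334, 328 and 253 CPM. That list did not set HET 1 and HET 2 apart: HET 1 lay within the WT range, and HET 3 lay above it with HET 2. The part of these marker differences in the Epha3, Robo3 and Ntng2 values was not tested. Without cortex HET 3, 9 members passed, among 30.7% of all genes: Robo3 (3.08), Ephb4 (0.68), Efna2 (0.51), Ephb2 (0.47) and Efnb1 (0.42) were higher in HET, and Epha3 (-0.88), Ntng2 (-0.54), Ephb6 (-0.51) and Efna3 (-0.35) were lower, as log2 fold changes. Without cortex HET 1 and HET 2 the log2 fold change was -0.48 ± 0.18 for Epha3, 0.21 ± 0.46 for Robo3 and -0.09 ± 0.12 for Ntng2, and none of the 3 passed.

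**Figure D4:**
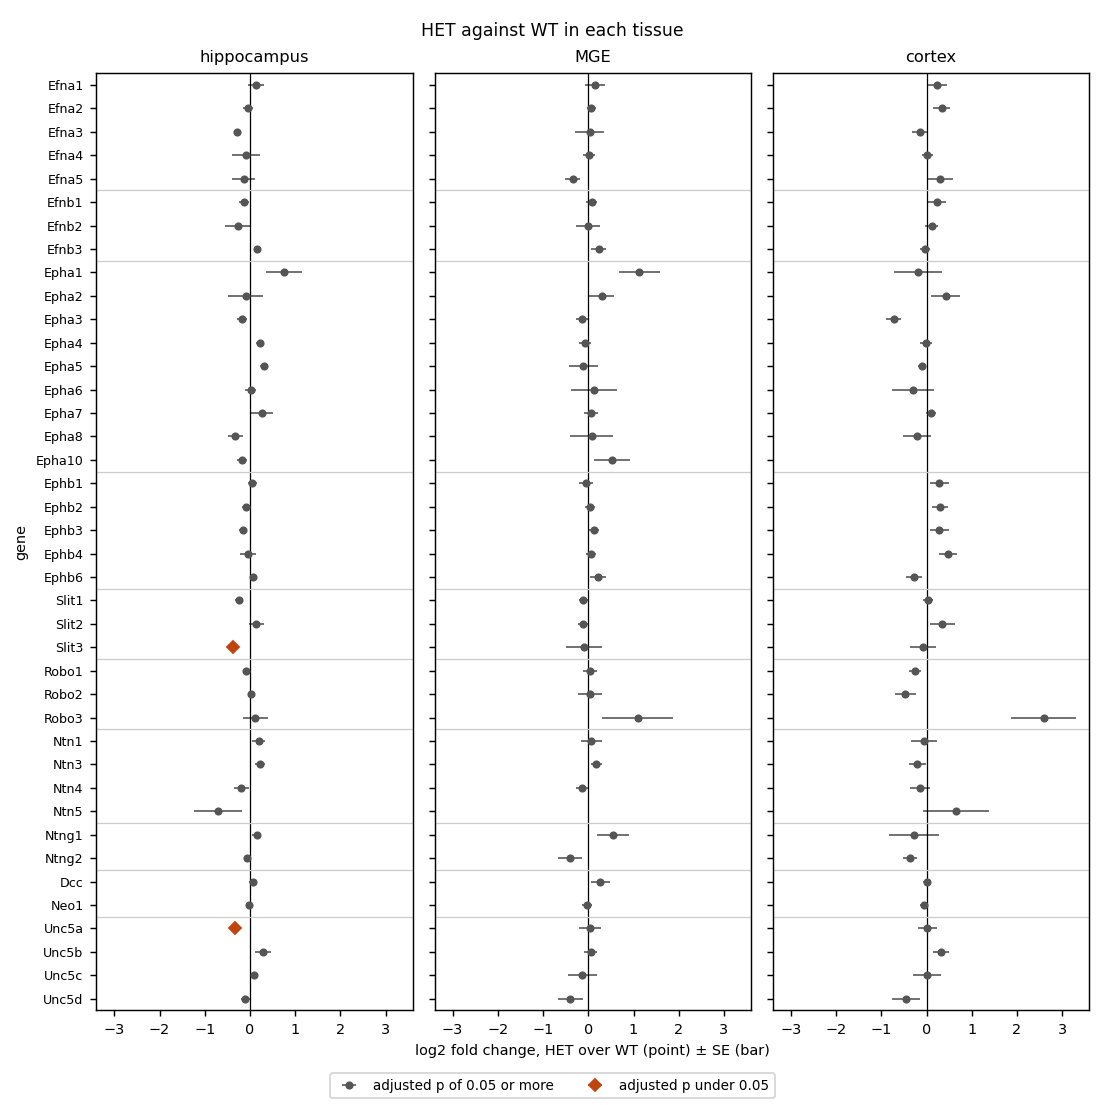
Log2 fold change of HET over WT (points) with its SE (bars) for each guidance gene in hippocampus, MGE and cortex. Slit3 (-0.38) and Unc5a (-0.33) in hippocampus are the 2 points marked as passing, and the widest bars belong to Robo3 and to genes of low count such as Ntn5 and Epha1.

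Whether the genotype effect differed between tissues was tested in one fit of all 18 libraries. In edgeR's test 0 of 40 members passed, beside 0.0062% of all genes. Epha3 alone had an unadjusted p under 0.05, beside 9.51% of all genes. Its adjusted p was 0.508. For Slit3 and Unc5a the adjusted p was 0.854 and 0.718 in edgeR's test, so their changes in hippocampus were not shown to differ from those in the other tissues. The genotype effect averaged over the 3 tissues passed for 0 of 40 members and 0.031% of all genes. At an unadjusted p under 0.05 in edgeR's test stood 4 members, beside 8.79% of all genes. The lowest p were those of Epha3 (log2 fold change -0.35 ± 0.09, adjusted p = 0.364 in edgeR's test) and Robo3 (1.26 ± 0.40, adjusted p = 0.466 in edgeR's test). Without cortex HET 3, 2 members passed the test between tissues, Epha3 (adjusted p = 0.0302 in edgeR's test) and Ephb6 (adjusted p = 0.0441 in edgeR's test), and the averages of Epha3 (-0.41 ± 0.08) and Robo3 (1.41 ± 0.34) passed as well. Of all genes, 12.6% passed the test between tissues without that library and 7.09% passed in the average. Without cortex HET 1 and HET 2 the averages were -0.27 ± 0.09 for Epha3 (adjusted p = 0.688 in edgeR's test) and 0.47 ± 0.40 for Robo3 (adjusted p = 0.884 in edgeR's test).

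A list of 67 other genes of these pathways (among them adaptors, co-receptors and sheddases) was read beside the members. In hippocampus 2 of the 67 passed between genotypes, both lower in HET, beside 1.07% of all genes. Trim9, a ubiquitin ligase that binds Dcc, had 311, 298 and 297 CPM in HET, against 358, 383 and 373 CPM in WT (log2 fold change -0.30 ± 0.05, adjusted p = 0.0275 in edgeR's test). Anks1, an adaptor of Eph receptors, had 40.2, 41.3 and 44.5 CPM in HET, against 53.4, 53.5 and 52.6 CPM in WT (-0.34 ± 0.06, adjusted p = 0.0293 in edgeR's test). No gene of the list passed in MGE or in cortex. Between tissues in WT libraries, 20 were higher and 11 lower for hippocampus against MGE, 22 higher and 8 lower for hippocampus against cortex, and 4 higher and 4 lower for MGE against cortex. The shares of all genes were the 30.9% and 23.6%, 28.1% and 24.7%, and 5.52% and 10.5% given above for WT libraries. Ngef, an exchange factor downstream of EphA receptors, led the genes higher in hippocampus (log2 difference 5.42 against MGE and 5.52 against cortex), followed by the adaptor Anks1b (4.55 and 4.60). Grb10, an adaptor of receptor kinases, and Draxin, a secreted ligand of Dcc, led those lower in hippocampus, at -4.97 and -3.23 against MGE and -4.71 and -5.34 against cortex. For MGE against cortex the exchange factors Vav3 (1.93) and Vav2 (1.39) and the adaptor Anks1 (1.39) were higher, and Flrt1 (-2.95), Lrrc4c (-2.66), which is the partner of netrin-G1, and Draxin (-2.12) were lower.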

How the data were processed

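RNA was measured in 18 mouse libraries, 3 per genotype and tissue. The deposited table holds raw counts per gene symbol, made by the authors, with no normalization. Tools listed in the submitters' processing notes are TopHat2 2.1.1, Trimmomatic, FastQC, DESeq2 and SAMtools, with the build mm10. How reads were counted per gene (program, annotation, strand) is not given in the sources used here. Counts put on the wrong gene, or split between near-identical or overlapping genes, would shift the levels given. Each column was matched to its sample by name. Symbols turned into dates (27 lines, 0.247 to 0.297% of the counts) stayed in the totals and none is named.

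Genes were filtered with filterByExpr (minimum count 10, minimum total 15), scaled by TMM and tested on the deposited counts with edgeR 4.0.16 (robust quasi-likelihood F test) in R 4.3.3. P-values were adjusted by Benjamini-Hochberg over all genes tested, with 0.05 as threshold and a 2-fold minimum between tissues. HET was compared with WT within each tissue, tissues within each genotype, and the genotype by tissue difference in one fit. SEs are those of log2 fold changes, and SDs are over libraries. Exon lengths came from GENCODE M21 (GRCm38, the same assembly as mm10), and promoter windows from RefSeq. Alternatives were RLE scaling, no filter, DESeq2 1.42.0, limma-voom (limma 3.58.1), the replicate number as a block, one fit of all libraries, a Y-linked covariate, tissue pairs alone, the longest transcript as length, and leaving out each library. Leaving out cortex HET 1 and HET 2 was added after seeing the data.

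The members, the pathway list and the markers were chosen with earlier results of these data known. Genes with full statistics are the members that passed and the 3 others with the lowest p for genotype, the 6 higher and 6 lower called members with the largest change between tissues, the 5 highest per length, and up to 3 passed pathway genes per direction. Other values were chosen after they were seen. The fits were first checked on simulated counts. Replicates differed by 5.79 to 100.5 times counting noise, so none was a copy of another. Intervals of counts (95%) cover counting error only.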

Additional observations from a re-analysis of the deposited data

How the results depend on the processing

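Of the counts of members called and the other summary values recomputed under each alternative, 302 stayed within 1.5 times their main value and 15 did not, and no result changed its direction. In hippocampus the number of members lower in HET was 2 in the main fit, where 1.07% of all genes passed. It became 3 (Efna3, Slit3 and Unc5a) with no filter on low counts (1.52% of all genes) and with DESeq2 (2.89%). It was 1 with limma-voom (0.752%), 1 with the replicate block (0.523%) and 0 in one fit of all 18 libraries (0.0682%). These changes are thus not read as particular to the members. When a library was left out the number ranged from 0 to 2, and the share of all genes is not given for those fits. The number higher, 0, became 1 with DESeq2 and ranged from 0 to 1 when a library was left out. In cortex DESeq2 called 1 member lower, beside 0.0745% of all genes. Leaving out a library gave 0 to 5 higher and 0 to 4 lower, the upper ends without HET 3, where 30.7% of all genes passed. Leaving out a library gave 0 to 2 members in the test between tissues, and 0 to 1 higher and 0 to 1 lower in the average. The upper ends were reached without cortex HET 3, where 12.6% and 7.09% of all genes passed. Of the 5 cortical genes highest per length, 3 remained with the longest transcript. The causes of these changes were not tested.

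Between tissues, leaving out a library moved no count of members by more than 2. The replicate numbers were not taken as pairs in the main fits. Same-numbered libraries correlated at -0.197 to 0.206 in their deviations from the group means. With 3 libraries per group such values cannot settle whether the numbers mark a shared batch or litter. With the number as a block, Unc5a had a log2 fold change of -0.32 (adjusted p = 0.0923 in edgeR's test) and Slit3 one of -0.38 (adjusted p = 0.0479 in edgeR's test). The Y-linked covariate could not be fitted in MGE, where it follows genotype, and was not run in hippocampus, where each Y-linked marker was at most 0.069 CPM. Members with few counts (Epha1, Ntn5, and Epha6, Epha10 and Ntng1 in embryonic tissue) allow only large differences to be seen.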

Other observations

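Robo3 is set here beside genes of other regions. Gbx2, a transcription factor of the developing thalamus, had 38.5, 13.4 and 26.8 CPM in HET MGE, against 25.6, 8.26 and 7.02 CPM in WT MGE. In the same libraries Robo3 had 45.5, 20.8 and 29.3 CPM in HET and 31.5, 7.80 and 5.14 CPM in WT. The other thalamus and diencephalon markers tested in MGE did not rise in HET. Their log2 fold changes were -0.03 ± 0.20 for Tcf7l2 and -0.39 ± 0.84 for Lhx9, against 0.93 ± 0.67 for Gbx2. In cortex Gbx2 was at most 0.19 CPM. The high Robo3 libraries HET 1 and HET 2 had the higher values of Wnt8b there, but the full list that holds Wnt8b did not set them apart. Its 5 markers of cortical hem and Cajal-Retzius cells summed to 318, 422 and 399.6 CPM in HET and to 334, 328 and 253 CPM in WT cortex. Gbx2 and Wnt8b were chosen after their values were seen, and with 6 libraries in each tissue no relation was tested.

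Whole families also differed between tissues. The 4 Unc5 receptors summed to 339 ± 11.4 CPM in HET and 376 ± 29.7 CPM in WT hippocampus, 33.9 ± 9.2 CPM in HET and 36.6 ± 4.16 CPM in WT MGE, and 76.8 ± 17.4 CPM in HET and 83.5 ± 3.42 CPM in WT cortex (SD, n = 3 each). The receptors Dcc and Neo1 together had 158 ± 5.72 CPM in HET and 158 ± 2.01 CPM in WT hippocampus, 328 ± 70.5 CPM in HET and 294 ± 34.6 CPM in WT MGE, and 358 ± 14.2 CPM in HET and 367 ± 3.72 CPM in WT cortex. The 4 netrins summed to 34.5 ± 1.56 CPM in HET and 32.2 ± 2.58 CPM in WT hippocampus, 270.2 ± 35.7 CPM in HET and 262 ± 74.2 CPM in WT MGE, and 25.3 ± 3.09 CPM in HET and 28.3 ± 3.02 CPM in WT cortex. These sums are not divided by gene length and compare tissues, not families.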
